A study of Mus musculus with 6 samples.

Results

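Uroplakins are the membrane proteins of the urothelial plaque, and their 5 genes are described here with Krt20, the keratin of the surface cells of the urothelium. The members are Upk1a, Upk1b, Upk2, Upk3a, Upk3b and Krt20, chosen by name with the null against heterozygote differences of these same arrays already known. The platform annotation assigns 10 probe sets to them, out of 34958 that carry a single gene symbol, and the 6 genes are among 18194 measured genes. Since the comparison between genotypes took part in the choice, the members' differences are given as a description. Calls of members in the fit over all genes are listed, but nothing is read from them.

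The RNA came from EGFP-positive cells, isolated by flow cytometry after the region of the intermediate mesoderm had been dissected from E11.5 mouse embryos. Of the 6 samples, 3 were Pax2 null and 3 were Pax2 heterozygote. The sample titles give EGFP/EGFP for the nulls and EGFP/+ for the heterozygotes, so that the dose of EGFP and the Pax2 genotype cannot be told apart, and every sample carries at least 1 EGFP allele. No wild-type sample was compared, and nothing in the labels says whether embryos were pooled or came from separate litters. P-values therefore measure the spread between these samples alone, which may be partly technical. Each sample was hybridized to a 1-colour array, and levels are RMA values on a log2 scale, in which 1 unit is a doubling of signal.

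The urothelium lines the renal pelvis, ureter and bladder. Upk1a and Upk1b are tetraspanins, proteins that cross the membrane several times. Upk1a pairs with Upk2, and Upk1b pairs with Upk3a or with its relative Upk3b, before the pairs reach the cell surface. The assembled particles cover the apical membrane of the superficial umbrella cells, which also hold Krt20. Upk1b and Upk3b are in addition known from mesothelium, the lining of the body cavities.

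Upk1a stood 5.01-fold higher and Krt20 2.61-fold higher in Pax2 null cells, whereas the other 4 genes had overlapping arrays and differences between -0.27 and 0.33 on the log2 scale. Upk1a had levels of 9.23, 9.48 and 8.37 in null 1, 2 and 3, against 6.44, 6.92 and 6.75 in heterozygote 1, 2 and 3 (log2). Every null array lay above every heterozygote array, with null 3 the lowest of the nulls. The means were 9.03 ± 0.58 in null and 6.70 ± 0.25 in heterozygous cells (log2, SD, n = 3 each), a difference of 2.32 ± 0.29 (SE). Among the 18194 genes this was the 18th highest difference in favour of null cells. Bulk RNA of sorted cells does not separate a change in the number of cells that make a transcript from a change in RNA per cell.

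Krt20 had levels of 4.82, 5.49 and 5.26 in null 1, 2 and 3, against 3.98, 3.73 and 3.71 in heterozygote 1, 2 and 3 (log2). The genotypes again did not overlap, and the 3 heterozygote arrays lay below the 33rd percentile of all probe sets (4.81), where RMA compresses differences. The mean was 5.19 ± 0.34 in null cells and 3.81 ± 0.15 in heterozygous cells (SD, n = 3 each), a difference of 1.38 ± 0.21 (SE), the 166th highest. The deposited values carry no detection call, so it is not known whether the heterozygote signal of Krt20 exceeds the array's background.

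Upk2, the partner of Upk1a, had levels of 5.39, 5.43 and 4.94 in null 1, 2 and 3, against 5.50, 5.27 and 5.36 in heterozygote 1, 2 and 3 (log2). These ranges overlapped, with null 3 the lowest of all 6 arrays, and the difference was -0.13 ± 0.18 (SE). Upk3a, which pairs with Upk1b, had 5.48, 5.11 and 5.04 in null 1, 2 and 3, against 4.41, 5.12 and 5.12 in heterozygote 1, 2 and 3. Heterozygote 1 alone was low, and the difference of 0.33 ± 0.24 (SE) came to 0.09 without that array. Upk3b was represented by a probe set with 6.40, 6.43 and 6.67 in null 1, 2 and 3, against 7.21, 6.52 and 6.57 in heterozygote 1, 2 and 3. Here heterozygote 1 alone was high, and the difference of -0.27 ± 0.22 (SE) came to -0.05 without it.

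Upk1b was covered by 4 probe sets, and they gave differences of both signs, all close to 0. The probe set with the highest mean had 4.77, 5.04 and 5.05 in null 1, 2 and 3, against 4.91, 4.78 and 5.06 in heterozygote 1, 2 and 3, a difference of 0.04 ± 0.16 (SE). The other 3 lay below the 33rd percentile on all 6 arrays, with differences of -0.24, -0.14 and -0.02 (log2). A signal from Upk1b was thus near the lower end of the array's range in both genotypes. The second probe set of Upk3b had 6.40, 5.91 and 7.09 in null 1, 2 and 3, against 7.61, 6.23 and 6.45 in heterozygote 1, 2 and 3. Its difference of -0.29 was close to that of the first, and heterozygote 1 was again the highest array, followed by null 3. The remaining members, Upk1a, Upk2, Upk3a and Krt20, had a single probe set each, so no second measurement on the array bears on the difference of Upk1a or Krt20.

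**Figure D1:**
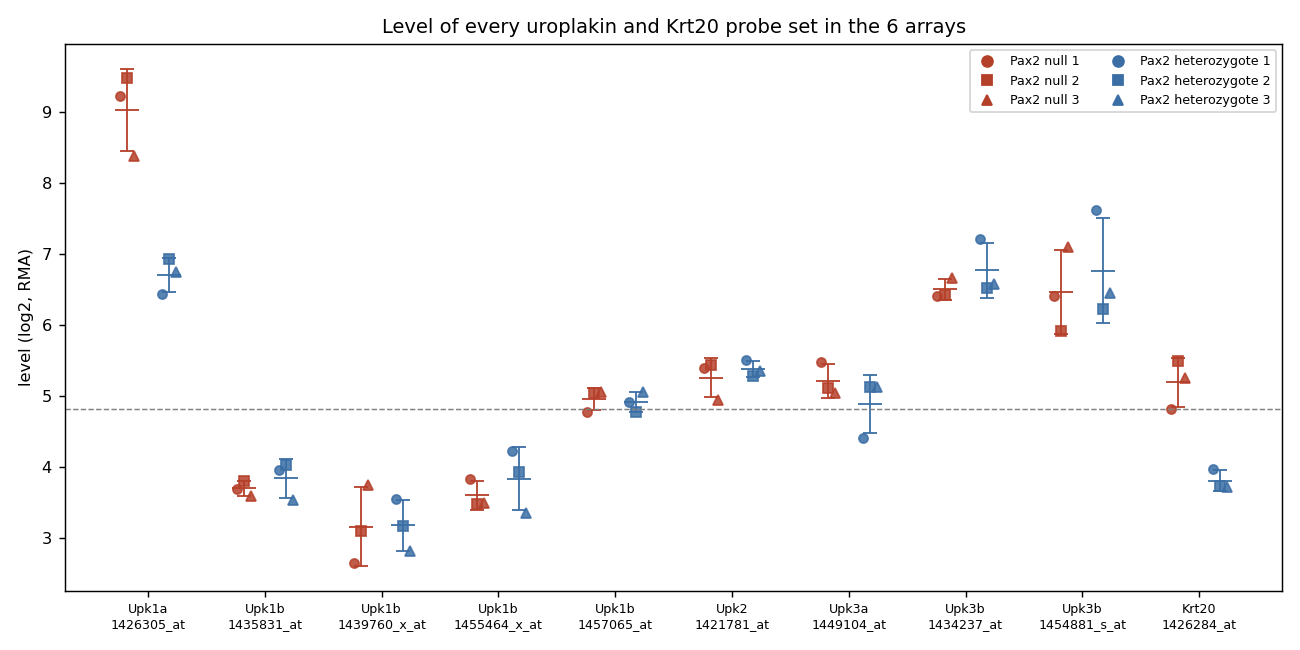
Level (log2, RMA) of the 10 probe sets of the uroplakins and Krt20, with null arrays in red left of heterozygote arrays in blue, 1 symbol per array, bars for mean ± SD (n = 3) and a dashed line at the 33rd percentile of all probe sets (4.81). Upk1a and Krt20 are the only 2 probe sets on which the genotypes do not overlap.

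Upk1a and Krt20 were the 2 members past an adjusted p of 0.05 in limma's fit over all genes, both higher in null. Over all 18194 genes 1.39% passed, 0.808% higher and 0.583% lower in null, and arrays of the genotypes did not overlap for 13.6%. These shares are given as background, and nothing is read from the members' count, since they were chosen from this contrast. The count of 2 fell to 0 without heterozygote 3. It fell to 1 without null 1, which left Krt20, and to 1 without null 2, null 3 or heterozygote 2, which left Upk1a. The differences themselves changed little when an array was left out, between 2.10 and 2.65 for Upk1a and between 1.23 and 1.57 for Krt20 (log2). The median difference was 0.18 over the 6 members and -0.02 over all genes.

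**Figure D2:**
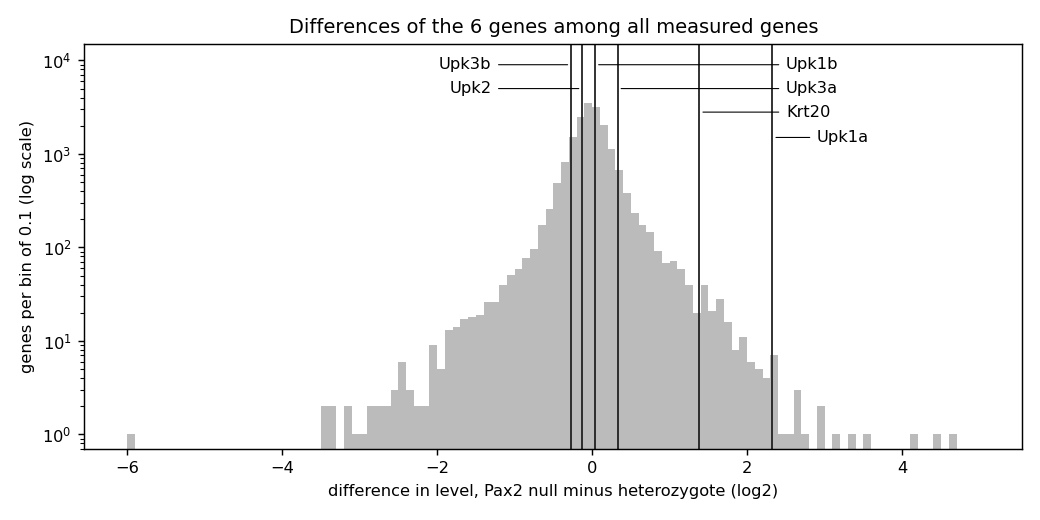
Histogram of the difference in level, Pax2 null minus heterozygote (log2), over 18194 genes on a logarithmic count axis, with a vertical line for each of the 6 members. Upk1a (2.32) and Krt20 (1.38) lie in the right tail, and the lines of the other 4 genes fall between -0.27 and 0.33 in the centre.

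The 14 bacterial hybridization controls, which are added to each sample and carry no genotype, were used to match the arrays into 3 pairs. Of 15 possible matchings, the one with the smallest summed distance between control levels was taken (1.94, against 5.05 for the next). It put 1 array of each genotype in every pair. A division into pairs was imposed, and whether the arrays form pairs was not tested. Pair 1 holds null 3 and heterozygote 1, pair 2 null 1 and heterozygote 2, and pair 3 null 2 and heterozygote 3. The labels do not mention these pairs. Within the pairs, Upk1a was higher in the null array by 1.93, 2.31 and 2.73, and Krt20 by 1.28, 1.09 and 1.78 (log2, pairs 1 to 3). Within pairs, the difference of Upk2 was -0.57, 0.11 and 0.08, that of Upk3a 0.63, 0.36 and -0.01, and that of Upk3b -0.54, -0.12 and -0.15. Upk1b differed by 0.14, -0.0042 and -0.02. For Upk1a and Krt20 the smallest pair difference exceeded the largest one of the other 4 genes. The mean over the pairs is the overall difference, known when the members were chosen, so this comparison is no separate support.

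The promoters of Upk1a and Krt20, whose transcripts stood higher in null cells, are shown with that of Upk3a, a plaque gene whose arrays overlapped. Each sequence is the 250 bases before the gene's start in RefSeq (build GRCm38.p6), read 5′ to 3′ on the gene's strand. Upk1a lies on the minus strand at chr7:30612735-30612984, Krt20 on the minus strand at chr11:99438154-99438403 and Upk3a on the plus strand at chr15:85016891-85017140. Capitals mark a TATA box, which is TATAAA or TATATA here, a motif of GATA factors, which is AGATAA or TGATAA, or the half-site of nuclear receptors (AGGTCA), each searched on both strands.
Upk1a: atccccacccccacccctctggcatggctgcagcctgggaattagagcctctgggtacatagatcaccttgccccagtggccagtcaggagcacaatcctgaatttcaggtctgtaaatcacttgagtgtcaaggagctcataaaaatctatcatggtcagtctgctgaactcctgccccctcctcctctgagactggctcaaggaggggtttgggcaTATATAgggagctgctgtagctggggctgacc
Krt20: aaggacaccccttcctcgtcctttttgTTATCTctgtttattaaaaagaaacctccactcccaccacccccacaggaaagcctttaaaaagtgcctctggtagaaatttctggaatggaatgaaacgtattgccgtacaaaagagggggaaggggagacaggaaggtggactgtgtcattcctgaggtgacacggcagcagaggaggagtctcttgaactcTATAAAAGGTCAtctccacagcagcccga
Upk3a: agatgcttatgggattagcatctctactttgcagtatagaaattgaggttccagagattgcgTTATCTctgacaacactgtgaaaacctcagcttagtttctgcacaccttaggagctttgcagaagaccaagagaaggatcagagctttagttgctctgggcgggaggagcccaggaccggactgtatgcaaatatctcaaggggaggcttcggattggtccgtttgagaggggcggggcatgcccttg

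Both promoters of the higher genes held a TATA box, with TATATA at positions -32 to -27 in Upk1a and TATAAA at -29 to -24 in Krt20, counted back from -1 as the last base before the start. Either form was found in 15.6% of 32851 RefSeq promoters of the same length, and in neither Upk3a nor Upk3b. The form in Upk1a was added to the search after that promoter had been read. Its match there was therefore certain, and the contrast with Upk3a and Upk3b is no test. The form in Krt20 alone was found in 12.4% of promoters, and it did not occur in that of Upk1a. Krt20 and Upk3a each held the GATA motif AGATAA on the opposite strand, at -223 to -218 in Krt20 and at -188 to -183 in Upk3a, and a GATA motif was present in 16.6% of all promoters. The half-site AGGTCA, present in 14.0% of all promoters, stood directly after the TATA box of Krt20 at -23 to -18 and at -155 to -150 in Upk3b. The forkhead motifs TGTTTAC and TGTTTGC (3.17% and 4.30% of promoters) and the grainyhead motifs AACCGG and ACCGGT (5.62% and 1.86%) did not occur in the 4 promoters examined, those of Upk1a, Upk3a, Upk3b and Krt20. These matches are descriptions of the letters, not evidence of a bound site.

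The 6 members lie on 6 different chromosomes. The nearest measured genes on either side of Upk1a on chromosome 7, Zbtb32 and Cox6b1, had differences of 0.04 ± 0.15 and 0.10 ± 0.16 (SE) and did not pass (limma, adjusted p = 0.992 and 0.983). Krt20 lies in the cluster of type I keratin genes on chromosome 11, between Krt12 and Krt23. Krt12, a keratin of the cornea, had a difference of 0.16 ± 0.16 (limma, adjusted p = 0.928). Krt23 had levels of 3.88, 4.37 and 4.04 in null 1, 2 and 3, against 7.03, 5.53 and 5.72 in heterozygote 1, 2 and 3. Its arrays did not overlap, in the direction opposite to those of Krt20, and its difference of -1.99 ± 0.38 (SE) did not pass (limma, adjusted p = 0.0525). Krt23 passed in 5 of 12 alternatives, among them the array pair as a block (limma, adjusted p = 0.0343) and the mean over probe sets (0.0398).

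The gene whose profile over the 6 arrays was most like that of Upk1a was Sema3a, a secreted guidance factor. Likeness was the root mean square distance between levels after subtraction of each gene's own mean, and it was 0.198 for Sema3a, 0.308 for Cited1 and 0.316 for Nfia (log2). Sema3a had 10.04, 10.03 and 9.53 in null 1, 2 and 3, against 7.36, 7.70 and 7.38 in heterozygote 1, 2 and 3. Cited1, a transcriptional co-regulator of early nephron progenitors, had 11.43, 12.01 and 10.74 in null 1, 2 and 3, against 9.24, 9.89 and 9.78 in heterozygote 1, 2 and 3. Like Upk1a, both were lowest in null 3 among the nulls and lowest in heterozygote 1 among the heterozygotes, which are the arrays of pair 1. Nfia, a transcription factor of the nuclear factor I family, had 10.58, 10.66 and 9.61 in null 1, 2 and 3, against 7.50, 8.02 and 8.74 in heterozygote 1, 2 and 3. Krt20 spanned less than 2 log2 units over the arrays, as did the other members, and no nearest genes were sought for them.

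Regulators known for the urothelium moved in both directions. Of 14 measured, 4 rose in null cells, Trp63, Foxa2, Grhl3 and Rarg, and 1 fell, Gata3 (limma, adjusted p under 0.05). Trp63, the regulator of basal and layered epithelia, had levels of 9.65, 9.85 and 9.50 in null 1, 2 and 3, against 5.32, 5.61 and 5.49 in heterozygote 1, 2 and 3. These groups lay far apart, with a difference of 4.20 ± 0.17 (SE; limma, adjusted p = 0.000134). The 4 probe sets of Trp63 differed by between 0.24 and 4.20, and their mean by 2.65 (limma, adjusted p = 0.000564). Foxa2, a forkhead factor of endoderm, had 6.90, 7.36 and 8.07 in null 1, 2 and 3, against 4.33, 4.58 and 4.58 in heterozygote 1, 2 and 3 (difference 2.94 ± 0.28, limma, adjusted p = 0.00440). Grhl3, a grainyhead factor that is known for umbrella cell differentiation, had 5.16, 6.35 and 6.56 in null 1, 2 and 3, against 4.26, 3.38 and 3.23 in heterozygote 1, 2 and 3 (difference 2.40 ± 0.41, limma, adjusted p = 0.0342). Within the nulls, null 3 was the lowest array for Trp63, as it was for Upk1a, and the highest for Foxa2 and Grhl3.

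Rarg, a retinoic acid receptor, differed by 1.01 ± 0.18 and Gata3, a zinc finger factor of the nephric duct and the urothelium, by -1.40 ± 0.21 (SE; limma, adjusted p = 0.0418 and 0.0215). The call of Rarg was lost whichever array was omitted (limma, adjusted p between 0.0522 and 0.165). Pparg, the nuclear receptor that drives umbrella cell genes, had levels between 5.10 and 5.25 in null and between 4.91 and 5.22 in heterozygous cells, and a difference of 0.10 ± 0.15 (limma, adjusted p = 0.985). Klf5 (-1.06 ± 0.21) and Ehf (-0.71 ± 0.17) had arrays that did not overlap, lower in null, but did not pass (limma, adjusted p = 0.0621 and 0.113, and 0.0287 and 0.0322 with the array pair as a block). The mean over the probe sets of Klf5 differed by -0.48. Rxra (0.76 ± 0.24), Shh (1.43 ± 0.34) and Foxa1 (1.07 ± 0.42) likewise did not overlap, higher in null, and did not pass (limma, adjusted p = 0.250, 0.113 and 0.433). With the array pair as a block, 5 regulators rose and 3 fell. The added ones were Rxra, higher in null (limma, adjusted p = 0.0369), and Klf5 and Ehf, lower. The median difference of the list was 0.50, and 7 of its genes were higher and 3 lower in null at an unadjusted p under 0.05. The share of all 18194 genes under that unadjusted cutoff was not taken. Over all genes the block called 824, against 253 in the main fit. Counts of this and the other lists at that cutoff or under the block are therefore description alone. Trp63 and Foxa2 kept their calls whichever array was omitted. The number that rose was 2 in place of 4 without null 2, null 3, heterozygote 2 or heterozygote 3, in each of which Grhl3 was lost as well as Rarg (limma, adjusted p of Grhl3 up to 0.137). It was 3 without null 1, and without heterozygote 1 it stayed at 4 because Shh passed (limma, adjusted p = 0.00878) where Rarg did not. Gata3 was lost without null 1, null 2, heterozygote 2 or heterozygote 3 (limma, adjusted p up to 0.0945).

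Among 12 keratins other than Krt20, 1 rose and 0 fell in the same fit, with a median difference of 0.07 (4 higher and 1 lower in null at an unadjusted p under 0.05). Krt5, the keratin of basal cells, had 6.76, 6.69 and 7.26 in null 1, 2 and 3, against 4.88, 5.11 and 5.37 in heterozygote 1, 2 and 3. Its difference of 1.78 ± 0.21 (SE; limma, adjusted p = 0.0103) was past the threshold in all 6 fits with 1 array left out. Krt19 (1.21 ± 0.25) and Krt15 (0.81 ± 0.21) also had arrays that did not overlap, higher in null, and did not pass (limma, adjusted p = 0.0729 and 0.152). With the array pair as a block Krt19 passed and Krt15 did not (limma, adjusted p = 0.00887 and 0.0600). Krt19 also passed with the mean over probe sets (limma, adjusted p = 0.0497) and without heterozygote 1 (0.0193). Krt14, the usual partner of Krt5, differed by 0.15 ± 0.17, and Krt13, a keratin of layered epithelia, by -0.04 ± 0.16. Both were among the 5 of 12 keratins below the 33rd percentile in both genotypes, where RMA compresses differences. Without heterozygote 1, and likewise with the pair as a block, the counts became 2 that rose and 1 that fell.

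Other genes known from urothelial cells showed 0 rises and 1 fall among 13 measured, with a median difference of 0.10 (2 higher and 2 lower in null at an unadjusted p under 0.05). Cldn8, a tight junction protein, had a difference of -1.81 ± 0.31 (SE; limma, adjusted p = 0.0342), and this call was lost in each fit without 1 array except that without null 3 (adjusted p up to 0.111). Perp, a desmosomal protein and target of Trp63, had 7.52, 8.16 and 8.46 in null 1, 2 and 3, against 6.92, 6.29 and 5.75 in heterozygote 1, 2 and 3. Its groups did not overlap, yet the difference of 1.73 ± 0.34 missed the threshold (limma, adjusted p = 0.0621). Perp passed in 5 of 12 alternatives, among them the fit without heterozygote 1 (limma, adjusted p = 0.0226). The others were the array pair as a block (0.0211), the mean over probe sets (0.0453), the intensity-dependent prior and the 33rd percentile filter. Tmprss2, a serine protease of epithelial surfaces, differed by -0.997 ± 0.30 and passed with the pair as a block (limma, adjusted p = 0.233 and 0.0216), and Sfn, an epithelial 14-3-3 protein, differed by 0.53 ± 0.23 and did not (0.509 and 0.0560). The 4 probe sets of Tmprss2 differed by between -2.68 and -0.05, and their mean by -1.44, which passed (limma, adjusted p = 0.0171). Of 10 genes listed for uroplakin trafficking, only Mal fell in limma, by 3.33 on the log2 scale (adjusted p = 0.00353), and 0 rose. Snx31 differed by 0.39 ± 0.16, Sytl2 by 1.04 ± 0.36 and Rab27b by -0.20 ± 0.16, and none of these 3 passed (limma, adjusted p = 0.486, 0.328 and 0.893). Snx31 lay below the 33rd percentile in both genotypes. Myo5b, a motor of recycling vesicles, differed by -0.64 ± 0.18 and did not pass (limma, adjusted p = 0.199). With the array pair as a block Sytl2 and Myo5b passed (limma, adjusted p = 0.0131 and 0.0411), for 1 rise and 2 falls on the list. The median of this list was -0.02, and 2 of its genes were higher and 2 lower in null at an unadjusted p under 0.05.

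Upk1a and Upk1b belong to the tetraspanins, and of 25 other measured tetraspanin genes 0 rose and 1 fell, with a median difference of -0.07. Tspan15, a tetraspanin that guides the protease Adam10, had 6.42, 6.64 and 6.91 in null 1, 2 and 3, against 8.67, 7.68 and 8.17 in heterozygote 1, 2 and 3. The difference was -1.52 ± 0.27 (SE; limma, adjusted p = 0.0367), lost without any one of the null arrays or without heterozygote 3 (adjusted p up to 0.140). Tspan2 (0.82 ± 0.22), the positive difference with the smallest p, did not pass (limma, adjusted p = 0.170). It passed with the array pair as a block (0.0211), as 1 of 2 that rose there. Tspan33 (-0.88 ± 0.24) and Tspan18 (-1.49 ± 0.50) did not pass in either fit (limma, adjusted p = 0.183 and 0.316, and 0.108 and 0.0764 with the block). The highest difference on the list was 1.18 ± 0.45 for Cd53, a gene of leukocytes (limma, adjusted p = 0.417), and the mean over its 2 probe sets differed by 0.59. At an unadjusted p under 0.05, 2 tetraspanins were higher and 3 lower in null.

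**Figure D3:**
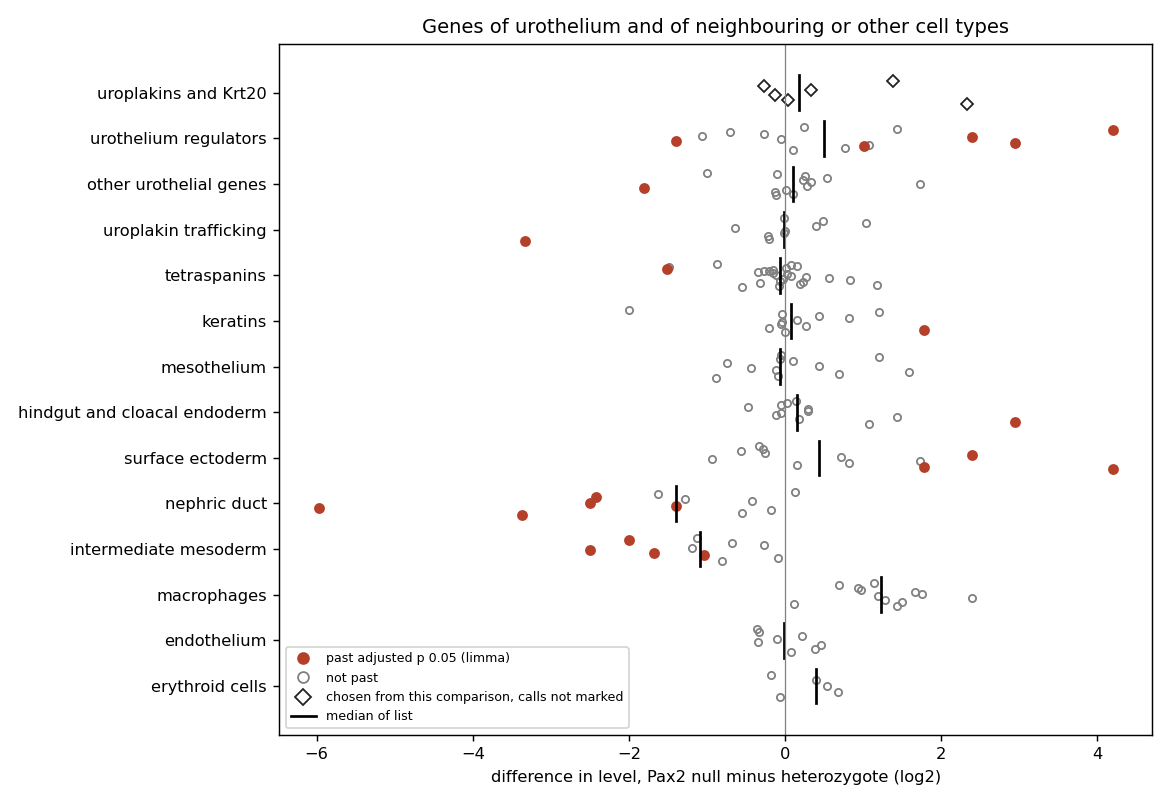
Difference in level, Pax2 null minus heterozygote (log2), of the 6 members (open diamonds) and of the genes of 13 lists, with 1 symbol per gene, filled red circles for genes past an adjusted p of 0.05 in limma and black bars at list medians. Members lie between -0.27 and 2.32, urothelium regulators between -1.40 and 4.20, and all 12 macrophage genes are above 0.

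Upk3b and Upk1b are also mesothelial genes. Of 12 other measured mesothelial markers 0 passed in limma in either direction (2 rose without heterozygote 1), 4 were higher and 2 lower in null at an unadjusted p under 0.05, the median difference was -0.06, and the summed level of the list ranged from 12.74 to 12.91 in null and from 12.64 to 12.83 in heterozygous arrays (log2 of the sum). Such a sum is set mostly by the brightest genes, here Aldh1a2 (mean 11.28 in null and 10.85 in heterozygous cells) and Krt8 (10.91 and 10.96). It says little of dimmer markers. Msln, the surface protein mesothelin, had 5.88, 5.87 and 5.86 in null 1, 2 and 3, against 7.44, 6.39 and 6.45 in heterozygote 1, 2 and 3. Heterozygote 1 was the highest array for Msln, as it was for both probe sets of Upk3b, but null 3 was not raised. Bnc1, a zinc finger factor of mesothelium and layered epithelia, went the other way, with 6.16, 5.64 and 6.57 in null 1, 2 and 3, against 5.48, 4.14 and 3.99 in heterozygote 1, 2 and 3. Its difference of 1.59 ± 0.41 did not pass (limma, adjusted p = 0.147) and passed with the array pair as a block (0.0150), where 2 genes of the list rose, Bnc1 and Krt19. Rspo1, a secreted Wnt enhancer, had 9.19, 9.49 and 9.38 in null 1, 2 and 3, against 9.85, 10.37 and 10.08 in heterozygote 1, 2 and 3, with heterozygote 1 the lowest of its genotype. Gpm6a had 4.81, 4.46 and 5.68 in null 1, 2 and 3, against 6.76, 4.88 and 4.60 in heterozygote 1, 2 and 3, and was named after its values were seen because its highest arrays were those of Upk3b. Upk3bl, the gene next to Upk3b on chromosome 5, had 5.10, 5.72 and 5.80 in null 1, 2 and 3, against 6.21, 5.15 and 5.09 in heterozygote 1, 2 and 3. Upk3b, Gpm6a and Upk3bl had heterozygote 1 and null 3 as their 2 highest arrays, which are those of pair 1, the pair with the highest hybridization controls. Of the 12 mesothelial markers only Gpm6a and Krt8 had those 2 highest arrays.

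Markers of other cell types moved with genotype beside Upk1a and Krt20, and their part in those differences was not tested. All 12 macrophage markers were higher in null on average, with a median difference of 1.23 and a summed level of 10.67 to 12.24 in null against 9.33 to 10.70 in heterozygous arrays (log2 of the sum), and 0 passed in limma (7 higher at an unadjusted p under 0.05, 1 call without heterozygote 1, 5 with the array pair as a block). The 4 with the smallest p were Mrc1, Laptm5, Tyrobp and C1qc, with differences of 2.39 ± 0.57, 1.28 ± 0.33, 1.49 ± 0.39 and 1.67 ± 0.52 (limma, adjusted p between 0.117 and 0.250). Over all genes the block raised the number of calls as well, from 253 to 824. Ptprc and Adgre1 lay below the 33rd percentile in both genotypes. Of 12 markers of surface ectoderm, Trp63, Krt5 and Grhl3 rose and 0 fell (5 higher and 1 lower at an unadjusted p under 0.05), with 4 rises once the array pair was a block, a median of 0.44 and a summed level of 11.77 to 12.42 in null against 11.37 to 12.14 in heterozygous arrays. Of 12 endoderm markers Foxa2 rose and 0 fell (3 higher and 1 lower at an unadjusted p under 0.05, and 2 that rose without heterozygote 1), the median was 0.15, the summed levels were 12.39 to 12.66 in null against 12.28 to 12.65 in heterozygous arrays, and Foxa1, Sox17 and Cdx1 lay below the 33rd percentile. The endoderm sum was set mostly by Epcam (mean 11.37 in null and 11.42 in heterozygous cells) and Cldn6 (11.38 and 11.35). Shh, the endodermal signal to the bladder mesenchyme, differed by 1.43 ± 0.34 and did not pass (limma, adjusted p = 0.113), and the mean over its 2 probe sets differed by 0.65. Neither Foxa1 nor Hnf4a, regulators of endoderm, passed, with differences of 1.07 ± 0.42 and -0.47 ± 0.19 (limma, adjusted p = 0.433 and 0.476), and the mean over the 4 probe sets of Hnf4a differed by -1.65 (adjusted p = 0.0644). Its single probe sets differed by between -3.18 and -0.47. With every probe set as a unit, 1 endoderm marker fell in limma. The 8 endothelial and 5 erythroid markers had medians of -0.01 and 0.40, with 0 calls in limma and 0 genes at an unadjusted p under 0.05. The 4 with the smallest p in each, Kdr, Esam, Tek and Cldn5 for endothelium and Hba-x, Hbb-y, Hbb-bh1 and Alas2 for erythroid cells, differed by between -0.36 and 0.67. Their summed levels were 8.51 to 8.88 in null against 8.29 to 8.78 in heterozygous arrays for endothelium. For erythroid cells they were 12.21 to 13.41 in null against 11.46 to 13.08 in heterozygous arrays.

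All 10 markers of intermediate mesoderm lay above the 33rd percentile on all 6 arrays. In null cells 4 of them fell and 0 rose, with a median of -1.08, and 5 of 11 duct markers fell and 0 rose, with a median of -1.40 (limma, adjusted p under 0.05). The mesoderm markers that fell were Gdnf (-2.01 ± 0.17), the ligand of Ret, Lhx1 (-2.50 ± 0.22), Sall1 (-1.68 ± 0.26) and Eya1 (-1.04 ± 0.17). Pax8 (-1.20), Six2 (-1.13), Osr1 (-0.81), Hoxa11 (-0.68), Hoxd11 (-0.28) and Wt1 (-0.09) were lower in null on average and did not pass. The duct markers that fell were Calb1 (-5.97 ± 0.53), a calcium-binding protein, the receptor Ret (-3.37 ± 0.48), Elf5 (-2.42 ± 0.42), Lhx1 and Gata3. The mean over the 4 probe sets of Calb1 differed by -3.82 (limma, adjusted p = 0.000407). At an unadjusted p under 0.05, 7 mesoderm and 8 duct markers were lower and 0 higher, and with the array pair as a block 6 of each fell. The added ones were Six2, Hoxa11 and Cdh16 (limma, adjusted p = 0.0190, 0.0295 and 0.00911). The count of mesoderm markers was 2 without null 1, heterozygote 2 or heterozygote 3. That of duct markers was 2 without null 1 or heterozygote 3 and 3 without null 2 or heterozygote 2. Pax2 itself is not analysed here, and the labels were thus not checked by the targeted gene. Median levels lay between 6.12 and 6.24, and arrays of a genotype correlated at 0.976 to 0.991 over all probe sets, so that none was a copy of another.

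**Figure D4:**
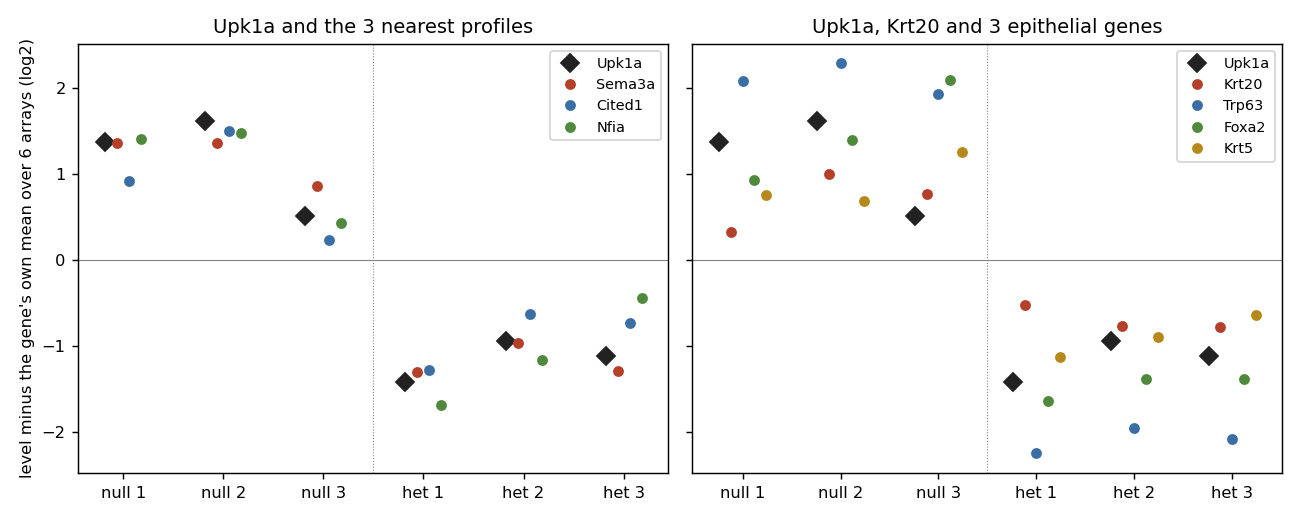
Level of each gene minus its own mean over the 6 arrays (log2), with null arrays left of heterozygote arrays, for Upk1a (diamonds) and its 3 nearest profiles on the left and for Upk1a, Krt20, Trp63, Foxa2 and Krt5 on the right. Upk1a is lowest among the nulls in null 3, as are Sema3a, Cited1, Nfia and Trp63, while Foxa2 and Krt5 are highest there.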

How the data were processed

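The authors deposited 1 table of log2 values with 45101 probe sets and 6 samples. Per the submitters' processing notes, affy, RMA and limma were used, with versions and settings not given in the sources used here. RMA equalizes the distribution of values between arrays, which hides differences in total RNA. Probe sets with exactly 1 symbol in the platform annotation (34958) were kept, their identifiers were matched to RefSeq (34754 matched, 0 symbols changed), and the brightest probe set on average stood for each gene, giving 18194 genes, 9012 with several probe sets. The genotypes were compared by limma (version 3.58.1, R version 4.3.3; lmFit, then eBayes, two-sided, Benjamini-Hochberg over all genes), with no filter and no covariates. Changes are null minus heterozygote. The fit was tested on simulated data. The number of arrays limits the precision, and 0 deposited columns were left out.

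The members, lists and tests were chosen with earlier results of these data known, and the letters TATATA after the promoter of Upk1a was read. Named genes are the members, up to 4 genes per list with the smallest p, the mesoderm markers, every called gene of a count of 5 or fewer, and the 3 nearest profiles of a member that spans at least 2 log2 units. Others given to describe a group (Pparg, Rxra, Krt13, Krt14, Klf5, Ehf, Rab27b, Cd53, Gpm6a, Krt8, the chromosomal neighbours) were added after their values were seen. Alternatives were an intensity-dependent prior, a filter at the 33rd percentile, median centring, repeated quantile normalization, the mean over probe sets, single probe sets, the array pair as a block and omission of each array. Promoters come from RefSeq (GRCm38.p6), and figures were drawn in Python 3.11.15.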

Additional observations from a re-analysis of the deposited data

How the results depend on the processing

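The number of genes changed between null and heterozygous cells was 253. It was 824 with the array pair as a block and ranged from 84 to 318 with 1 array left out (86 without null 1, 110 without null 2, 98 without heterozygote 2 and 84 without heterozygote 3). Under the other 6 alternatives it lay within 1.5 times the main count, and the cause of these shifts was not tested. Of 81 recomputed member differences, 79 moved by less than 1 SD between replicates. The other 2 were single probe sets of Upk1b, at -0.14 and -0.24. Part of the 81 could not move, since the intensity-dependent prior, the filter and the pair block leave the difference itself unchanged. The mean over probe sets and single probe sets likewise leave it unchanged for members with a single probe set. Upk1a ranged from 2.10 to 2.65 and Krt20 from 1.23 to 1.57. The 33rd percentile filter removed Krt20 from the fit, since its mean over the 6 arrays lies below it. Of 548 recomputed changes of list genes, 476 kept their direction and side of the threshold, 40 lost it, 27 gained it and 5 turned sign. Sign turned for Tek and Alas2 without heterozygote 1, for Alas2 without null 3 and for Hbb-y and Hbb-bh1 without heterozygote 2, none of them called in those fits. With 1 array left out, Tek ranged from -0.633 to 0.0183, Alas2 from -0.418 to 0.0525, Hbb-y from -0.0022 to 0.712 and Hbb-bh1 from -0.137 to 1.19. Among members, 7 recomputed differences of Upk1b (down to -0.24) and 1 of Upk2 (0.03, without null 3) turned sign. The sample titles carry serial numbers but name no replicates or pairs, so the block rests on pairs drawn from the hybridization controls. Low signal limits Upk1b, Upk2, Upk3a, Krt20, Krt13, Krt14 and Snx31, and 3 arrays a genotype limit every call. It also limits the size of differences for genes with 1 genotype wholly below the 33rd percentile. Such were Foxa2 and Grhl3 in heterozygous cells and Elf5 and Krt23 in null cells.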
